A study of Mus musculus with 8 samples.

Results

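The genes described here are 10 members of the mouse SP and KLF family of transcription factors, examined for called peaks of chromatin bound by an antibody against APOBEC2 in differentiating C2C12 cells. The members are Sp1, Sp2, Sp3, Sp4, Klf4, Klf6, Klf9, Klf10, Klf11 and Klf13, out of 26 SP and KLF genes and 21887 protein-coding genes of the gene table on chromosomes 1 to 19, X and Y. A peak was assigned to a member when it overlapped the gene, or the 1 kb before its start or after its end, by at least 1 bp. The members were chosen by the presence of called peaks in these same lists, seen in earlier work on them. Presence at 34 h and 14 h is therefore given as a description, without a test, and so are the folds that come from the same peaks.

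C2C12 is a mouse myoblast line whose cells stop dividing and fuse into myotubes after serum withdrawal. Chromatin immunoprecipitation with a polyclonal rabbit antibody against APOBEC2, a member of the AID/APOBEC deaminase family expressed in skeletal muscle and heart, was followed by sequencing at 34 h and at 14 h after the change to 2% horse serum. At each of these times there were 3 libraries of immunoprecipitated (IP) DNA and 1 of input DNA. The sample titles give 34 and 14 h, whereas the growth protocol names harvests at 34 or 24 h, so the earlier time is uncertain. All groups are of the same line and carry no stated genotype or drug. The names of all the peak lists hold the tag GFPsh, which the labels do not explain. No control from cells lacking APOBEC2, or with an unspecific antibody, was analysed here, and the labels do not say whether replicates came from separate cultures.

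SP and KLF proteins bind DNA through zinc fingers at their C-terminal end and recognise GC-rich boxes and the related CACCC boxes of promoters and enhancers. SP proteins of the Sp1 to Sp4 group carry glutamine-rich activating domains and serve many housekeeping and growth-related promoters, while several KLF proteins recruit corepressors and compete for the same boxes. In muscle cells, Sp1 is known to act together with MyoD on muscle gene promoters. A called peak at one of these genes places immunoprecipitated chromatin there; it measures neither the gene's expression nor the binding of the SP or KLF protein itself.

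The lists held 2209, 5025 and 1068 peaks in replicates 1, 2 and 3 of 34 h, and 768, 1327 and 797 peaks in those of 14 h. The files give no read totals. The whole number of fragments under each summit was solved from the authors' fold and p-value, and its median over a list was 19 to 21 at 34 h and 22 to 24 at 14 h. The authors' fold says how many times the IP signal at the summit exceeded the local background, on a linear scale, and its list median was 5.70 to 6.03 at 34 h and 7.99 to 8.47 at 14 h. The lowest −log10 p in a list was 5.01, 5.18 and 6.44 at 34 h and 7.08, 5.34 and 6.55 at 14 h, so a weak site could enter some lists and not others.

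Peaks were called at 7 of the 10 members in at least 1 library, against 20.2% of all protein-coding genes. At 34 h, Sp1, Sp2, Sp4 and Klf9 had a peak in all 3 libraries, and Sp3 and Klf10 in replicates 1 and 2. At 14 h, Klf11 had a peak in all 3 libraries, and Sp3 and Sp4 had peaks in replicate 2. Klf4, Klf6 and Klf13 had none in any library. A gene was called at a time when 2 or more of its 3 libraries had a peak. By this rule, 6 members were called at 34 h, where 9.01% of all protein-coding genes were called, and 1 at 14 h, where 4.27% were. The 6 and the 1 did not share a gene. Over all protein-coding genes, 5.51% were called at 34 h and not at 14 h, and 0.768% the other way round. Since presence chose the members, these shares say nothing about the family as a whole.

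**Figure D1:**
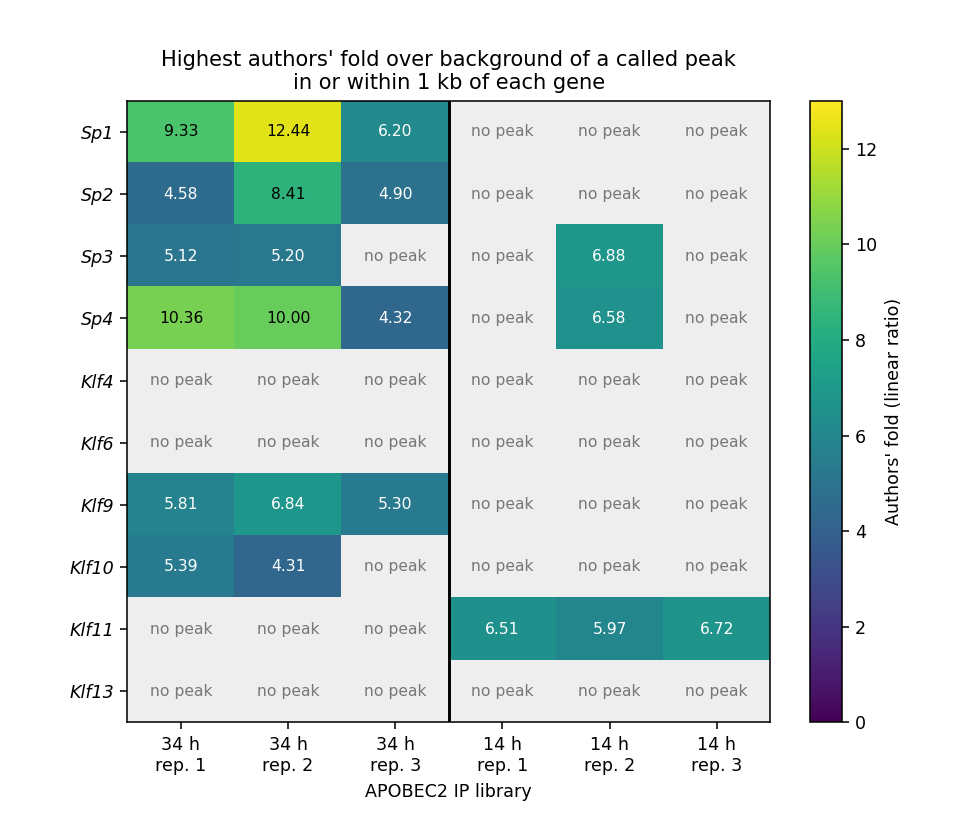
Highest authors' fold of a called peak in or within 1 kb of each of the 10 genes (rows) in each IP library (columns; 34 h left, 14 h right), on a linear colour scale; grey cells had no called peak. Sp1 reached 12.4 in replicate 2 of 34 h, and Klf11 was the only row with peaks at 14 h and none at 34 h.

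Promoter sequences of the 6 members with a peak in at least 3 libraries show what kind of DNA lay under or beside these peaks. Each is 300 bases on the gene's strand, 5′ to 3′, from 250 before the annotated start to 50 from the start on, as given by RefSeq on GRCm38.p6, which has the chromosome coordinates of mm10. The windows are chr15:102406066-102406365 (+ strand) for Sp1, chr11:96977639-96977938 (− strand, an internal start) for Sp2, chr2:72980397-72980696 (− strand) for Sp3 and chr12:118301391-118301690 (− strand) for Sp4. Those of Klf9 and Klf11 are chr19:23140976-23141275 and chr12:24651121-24651420 (both + strand). Capitals mark matches on either strand to GGGCGG, the element known as a GC box. They also mark CCACCC, a box of the type that KLF proteins recognise, called a CACCC box here. The last element in capitals is CCAAT, the box bound by the factor NF-Y.
Sp1: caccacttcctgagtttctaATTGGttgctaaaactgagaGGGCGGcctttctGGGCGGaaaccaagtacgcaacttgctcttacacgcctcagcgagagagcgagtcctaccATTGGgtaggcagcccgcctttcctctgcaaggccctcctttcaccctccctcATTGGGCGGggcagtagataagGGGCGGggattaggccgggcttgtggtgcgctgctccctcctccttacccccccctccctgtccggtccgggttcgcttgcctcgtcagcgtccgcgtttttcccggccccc
Sp2: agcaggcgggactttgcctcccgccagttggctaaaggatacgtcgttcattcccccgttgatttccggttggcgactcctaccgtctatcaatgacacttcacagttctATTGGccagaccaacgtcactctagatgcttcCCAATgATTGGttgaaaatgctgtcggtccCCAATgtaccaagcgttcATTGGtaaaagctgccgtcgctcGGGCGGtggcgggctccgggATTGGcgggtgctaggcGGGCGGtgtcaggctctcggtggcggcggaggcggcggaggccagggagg
Sp3: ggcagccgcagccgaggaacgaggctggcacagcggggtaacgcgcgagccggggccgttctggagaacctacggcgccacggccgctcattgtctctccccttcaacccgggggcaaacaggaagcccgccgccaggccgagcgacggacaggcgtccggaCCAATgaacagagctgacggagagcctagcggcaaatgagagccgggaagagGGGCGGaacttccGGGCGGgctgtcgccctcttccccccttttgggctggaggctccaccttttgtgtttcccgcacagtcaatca
Sp4: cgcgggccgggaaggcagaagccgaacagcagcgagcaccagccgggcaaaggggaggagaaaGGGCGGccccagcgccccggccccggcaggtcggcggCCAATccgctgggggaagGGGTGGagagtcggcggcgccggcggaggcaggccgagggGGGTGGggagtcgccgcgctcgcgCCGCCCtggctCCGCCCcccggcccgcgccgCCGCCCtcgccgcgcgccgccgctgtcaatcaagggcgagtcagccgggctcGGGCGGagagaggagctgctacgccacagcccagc
Klf9: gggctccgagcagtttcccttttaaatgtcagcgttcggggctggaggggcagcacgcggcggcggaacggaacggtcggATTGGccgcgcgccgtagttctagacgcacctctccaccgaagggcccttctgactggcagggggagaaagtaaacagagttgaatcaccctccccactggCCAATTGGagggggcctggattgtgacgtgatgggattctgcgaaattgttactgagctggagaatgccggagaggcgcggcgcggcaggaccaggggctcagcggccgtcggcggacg
Klf11: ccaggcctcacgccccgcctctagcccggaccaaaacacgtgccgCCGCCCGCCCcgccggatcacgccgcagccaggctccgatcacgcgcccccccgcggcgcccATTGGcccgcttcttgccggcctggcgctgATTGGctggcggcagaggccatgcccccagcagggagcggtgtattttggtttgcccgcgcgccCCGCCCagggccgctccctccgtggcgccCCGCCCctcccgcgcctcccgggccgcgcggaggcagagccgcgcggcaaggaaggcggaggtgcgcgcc

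The 6 windows differ in these boxes. The Sp4 window had 5 GC boxes and 2 CACCC boxes with 1 CCAAT, and only 1.82% of the 21263 promoter windows of protein-coding genes had as many GC and CACCC boxes. A peak overlapped this Sp4 window in 1 library of each time, and the highest Sp4 peaks of 34 h lay outside it. The Sp1 and Klf11 windows had 4 GC boxes each, with 3 and 2 CCAAT boxes, and in the Sp1 window a GC box and a CCAAT box share 2 bases. The Klf9 window had neither GC nor CACCC box but 3 CCAAT boxes, of which a pair on opposite strands overlap. The internal Sp2 window had 2 GC boxes and 6 CCAAT boxes, a number that 20 windows of the whole table (0.0941%) reached. The printed Sp3 window had 2 GC boxes and 1 CCAAT box. Another annotated start of Sp3 had a window with 5 GC boxes and 1 CACCC box, which no peak overlapped at either time. GC content ran from 59.7% in the Sp2 window to 78.7% in the Sp4 window, against a median of 56.3% over all windows.

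Over all windows, 46.2% held GGGCGG, 33.6% CCACCC and 38.2% CCAAT. Of the 1312 windows overlapped by a peak in at least 2 libraries of 34 h, 74.5% held GGGCGG, 29.0% CCACCC and 61.4% CCAAT. Of the 639 such windows of 14 h, the shares were 75.0%, 31.1% and 56.3%. Windows under peaks were also richer in G and C, with a median of 61.0% at 34 h and 62.7% at 14 h, and the part of base composition in these shares was not tested. Further letters searched were the cell cycle homology elements TTTGAA and, with another centre, TTCGAA. Others were the E2F-like TTCCCGC, a second such element, TTGGCGC, and the muscle E-box CAGCTG. None of these was in the 6 printed windows except TTCCCGC, once in that of Sp3. Over all windows they were in 16.0%, 1.85%, 5.95%, 3.09% and 15.6%, in the order named. Of the windows under peaks of 34 h, 18.8%, 4.65%, 19.3%, 8.54% and 12.0% held them. Of those of 14 h, the shares were 27.4%, 5.95%, 29.4%, 10.8% and 11.7%. A match of letters is a description and not evidence of a bound site.

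Sp1, the widely expressed founding member that activates GC-box promoters, had the highest single fold and the highest mean fold of the 10 genes, although Sp4 was higher in replicate 1 of 34 h (chr15:102406316-102436404, + strand). Its fold was 9.33 in replicate 1, 12.4 in replicate 2 and 6.20 in replicate 3 of 34 h, a mean of 9.32 ± 3.12 (SD, n = 3), against no called peak in the 3 libraries of 14 h. The groups of libraries therefore do not overlap in presence, a pattern that 1.04% of all protein-coding genes had. Presence chose the members, so this is a description. The summits stood on 32, 51 and 20 fragments over local backgrounds of 2.54, 3.18 and 2.39. Replicates 1 and 2 placed the summit 514 and 513 bp upstream of the annotated start, 1 bp apart. The peak of replicate 2 spanned chr15:102405275-102406254 (980 bp), the widest of any member, and that of replicate 1 chr15:102405547-102406247. In replicate 3 the same stretch was called as a pair of peaks, with summits 550 and 304 bp upstream. The peaks of replicates 1 and 2 covered 182 and 189 of the 300 bases printed above, but no summit lay in them, and no other gene was annotated within 1 kb.

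Within their own lists, 87.8% and 95.8% of peaks in replicates 1 and 2 had a lower −log10 p than the Sp1 peak, and 49.3% in replicate 3. Sp1 was the member with the highest place in each of the 3 lists of 34 h. The nearest peak outside the window in any library lay 33.8 kb from the gene.

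Sp2, a family member known to be recruited to DNA partly through NF-Y at CCAAT boxes, had peaks inside the gene rather than at its outer boundary (chr11:96953332-96982959, − strand). Its highest fold was 4.58, 8.41 and 4.90 in replicates 1, 2 and 3 of 34 h (5.96 ± 2.13, SD, n = 3), against no called peak at 14 h. Replicate 2 stood above the other replicates, on 31 fragments against 14 in each of them. RefSeq annotates 3 starts for Sp2, and all 4 peaks had their summit within 272 bp of the middle one, at position 96977688. Peaks of all 3 libraries overlapped the printed window of that start, covering 105, 252 and 147 of its bases, and replicate 2 had a further peak with its summit 227 bp downstream. No peak overlapped the windows of the other 2 starts. A window limited to 1 kb around the gene's outer boundaries would have missed Sp2 in all libraries.

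Sp3, which shares GC boxes with Sp1 and can activate or repress, had the same site at both times (chr2:72936430-72980446, − strand). Its highest fold was 5.12 and 5.20 in replicates 1 and 2 of 34 h, with no peak in replicate 3, against 6.88 in replicate 2 of 14 h and none in replicates 1 and 3. Summits lay 148 and 93 bp upstream of the start in those 34 h libraries and 97 bp upstream at 14 h. Replicate 2 of 34 h had a further peak of fold 4.94 with its summit 54 bp downstream. The peak of 14 h lay 4 bp, summit to summit, from that of replicate 2 of 34 h. The highest peaks stood on few fragments, 13 and 16 in the 34 h libraries and 17 at 14 h, and 10.0% and 23.0% of the 34 h lists had a lower −log10 p. All lay inside Sp3os, an overlapping long non-coding RNA gene annotated at chr2:72979432-72989249, so the peaks cannot be assigned to Sp3 alone.

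Sp4, a relative best known from neurons, was present in every library of 34 h and in 1 of 14 h (chr12:118231686-118301440, − strand). Its highest fold was 10.4, 10.0 and 4.32 in replicates 1, 2 and 3 of 34 h (8.23 ± 3.39, SD, n = 3), against 6.58 in replicate 2 of 14 h and no peak in replicates 1 and 3. Replicate 3 was the low one at 34 h, with 14 fragments and 0.562% of its list below it. A distal site had summits 564 bp upstream of the start in replicate 1 and 696 bp in replicate 2 of 34 h, and 687 bp in replicate 2 of 14 h. Its folds were 10.4 and 10.0 in those 34 h libraries and 6.42 at 14 h, and its peaks covered 0 bases of the printed window. A proximal site had its summits inside the printed window, 157 bp upstream in replicate 2 of 34 h and 166 bp in replicate 2 of 14 h. Its folds were 5.93 at 34 h and 6.58 at 14 h, so the highest folds of the 2 times came from different sites. Replicate 2 of 34 h and replicate 2 of 14 h, the longest list of each time, thus held both sites, with summits 9 bp apart at each. The labels do not link replicate numbers across times. The peak of replicate 3 of 34 h, 935 bp upstream, lay 883 bp outside the gene and was the member peak closest to the edge of the assignment window.

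**Figure D2:**
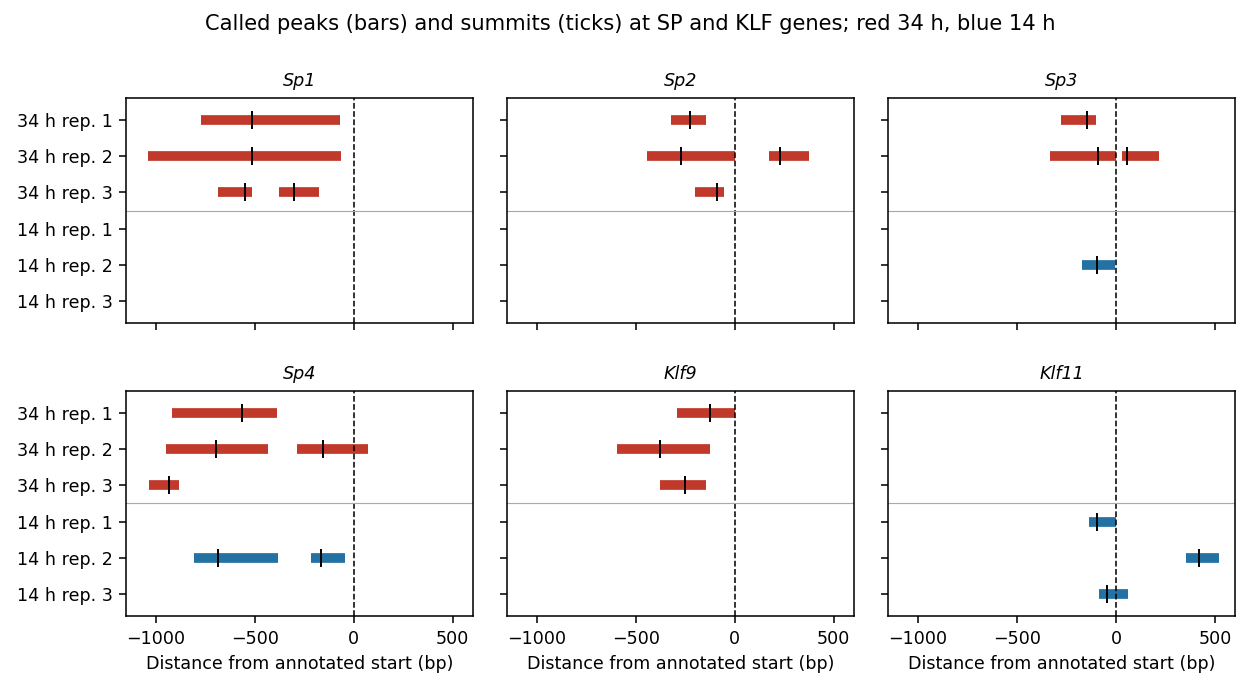
Peaks (bars) and summits (ticks) in each IP library, as distance in bp from the annotated start nearest the summits, upstream to the left; 34 h libraries are the upper 3 rows (red) and 14 h libraries the lower 3 (blue). Sp1, Sp2 and Klf9 have bars only in the 34 h rows, and Klf11 only in the 14 h rows. Sites called in replicate 2 of 34 h and in replicate 2 of 14 h have summits 4 bp apart at Sp3 and 9 bp at Sp4. Their bars differ in length.

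Klf9, a gene induced by glucocorticoid and thyroid hormones whose product often represses, was the one KLF gene of the family with a peak in all 3 libraries of 34 h (chr19:23141226-23168129, + strand). Its fold was 5.81, 6.84 and 5.30 in replicates 1, 2 and 3 of 34 h (5.98 ± 0.787, SD, n = 3), against no called peak at 14 h. These folds stood close together. The summits stood on 22, 32 and 20 fragments, over local backgrounds of 2.96, 3.82 and 2.96 that were in each library the highest of any member peak. Summits lay 128, 378 and 251 bp upstream of the start. The peaks overlapped the printed window by 252, 127 and 103 bases.

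Klf10 and Klf11 encode related repressors that were first described as early genes induced by TGF-beta and that recruit the Sin3A corepressor. They had peaks at opposite times. Klf10 (chr15:38291464-38300711) had a fold of 5.39 in replicate 1 and 4.31 in replicate 2 of 34 h, with no peak in replicate 3 or at 14 h. Its 2 peaks did not overlap, with summits 1587 bp apart, the first inside the gene and the second 356 bp beyond its upper coordinate boundary. They stood on 16 and 17 fragments and lay inside Gm35248, an overlapping long non-coding RNA gene annotated at chr15:38298747-38343139. Klf10 was therefore called by gene and not at any one position.

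Klf11 (chr12:24651371-24662782, + strand) had a fold of 6.51, 5.97 and 6.72 in replicates 1, 2 and 3 of 14 h (6.40 ± 0.389, SD, n = 3), with no called peak in any library of 34 h. It was the single member with this pattern, which 8 of all protein-coding genes (0.0366%) had. The reverse pattern, a peak in every library of 34 h with no peak at 14 h, was that of Sp1, Sp2 and Klf9 and of 1.04% of all protein-coding genes. Klf11 summits stood on 12, 12 and 13 fragments over backgrounds near 1 (0.996, 1.18 and 1.08), where the fewest fragments under any summit of these lists were 10. Replicates 1 and 3 placed the summit 96 and 43 bp upstream of the start, inside the printed window, and their peaks overlapped by 88 bp. The peak of replicate 2 lay elsewhere, with its summit 420 bp downstream, and overlapped neither. At most 16.3% of a list had a lower −log10 p than a Klf11 peak.

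Klf4, one of the pluripotency reprogramming factors, Klf6, an early response gene, and Klf13, known from T cell gene expression, had no called peak in or within 1 kb in the 6 libraries. The nearest called peak in any library lay 10.4 kb from Klf4 and 16.1 kb from Klf6, both in replicate 2 of 34 h, and 934 kb from Klf13, in replicate 3 of 34 h. Their promoter windows held 4, 1 and 3 GC boxes, so windows with such letters were found with and without a called peak. Klf6 had 4 CCAAT boxes. A site below the caller's threshold is not shown to be unbound.

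Across members, the 24 peaks of genes with an annotated start in the table had their summit within 1 kb of a start, at a median of 239 bp, and 21 of them lay upstream. Assignment reached only 1 kb beyond a gene, which limits in advance how far upstream of an outer start a peak can lie. Where a gene had several starts, the nearest was used. Of the 17 pairs of libraries of one time that both had a peak at the same member, 14 overlapped, with the closest summits a median of 132 bp apart. Of the 5 pairs across times, 4 overlapped, with a median of 51 bp. All 5 were at Sp3 or Sp4 and used replicate 2 of 14 h. The pairs of one time also came from other members, with summits up to 1587 bp apart at Klf10. The medians therefore cover different genes and are not comparable. Each time's libraries share an input, and pairs of one gene share libraries, so these counts are given as a description.

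By library, the number of members with a peak was 6, 6 and 4 in replicates 1, 2 and 3 of 34 h, against 1, 3 and 1 in those of 14 h. The shares of all protein-coding genes were 9.24%, 18.1% and 4.70% at 34 h and 3.72%, 6.50% and 3.97% at 14 h. Presence in these lists chose the members, and the part of list length in these numbers was not tested. Replicates 1 and 2 of 34 h held 6 each with 2209 and 5025 peaks. Replicate 3 of 34 h, with 1068 peaks, held Sp1, Sp2, Sp4 and Klf9. Replicate 2 of 14 h, with 1327 peaks, held Sp3, Sp4 and Klf11. When only the 768 most significant peaks of every list were kept, Sp1 and Sp4 were called at 34 h, where 3.16% of all protein-coding genes were, and Klf11 at 14 h, where 3.76% were. At a −log10 q of at least 5, Sp1, Sp4 and Klf9 were called at 34 h, with 7.60% of all genes, and Klf11 at 14 h, with 4.02%.

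**Figure D3:**
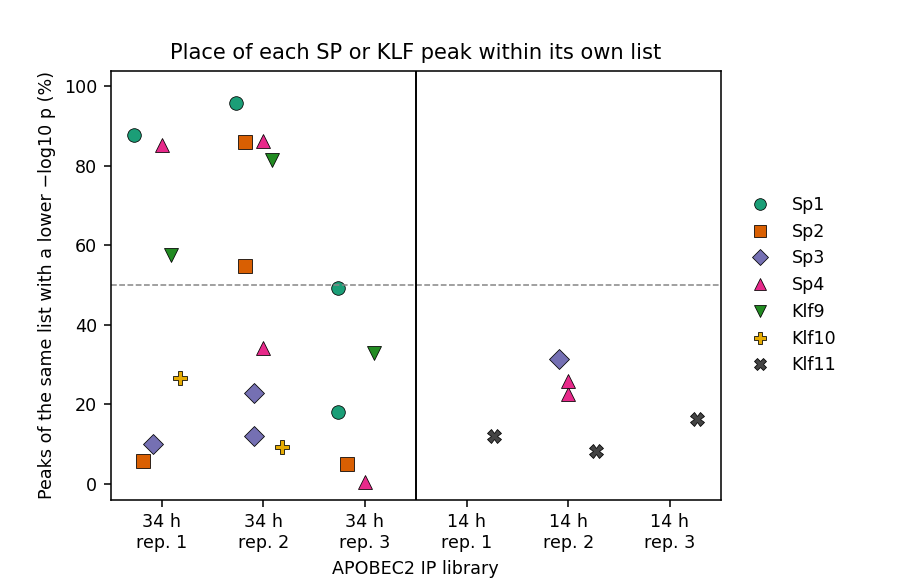
Share of peaks in the same list with a lower −log10 p (per cent) for each SP or KLF peak, by IP library (34 h left, 14 h right; the dashed line is the list median). Of the 20 peaks of 34 h, 8 lie above their list median, with a range of 0.562% to 95.8%, and the 6 peaks of 14 h lie at or below 31.3%; the lists differ in length, so places are not comparable between libraries.

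**Figure D4:**
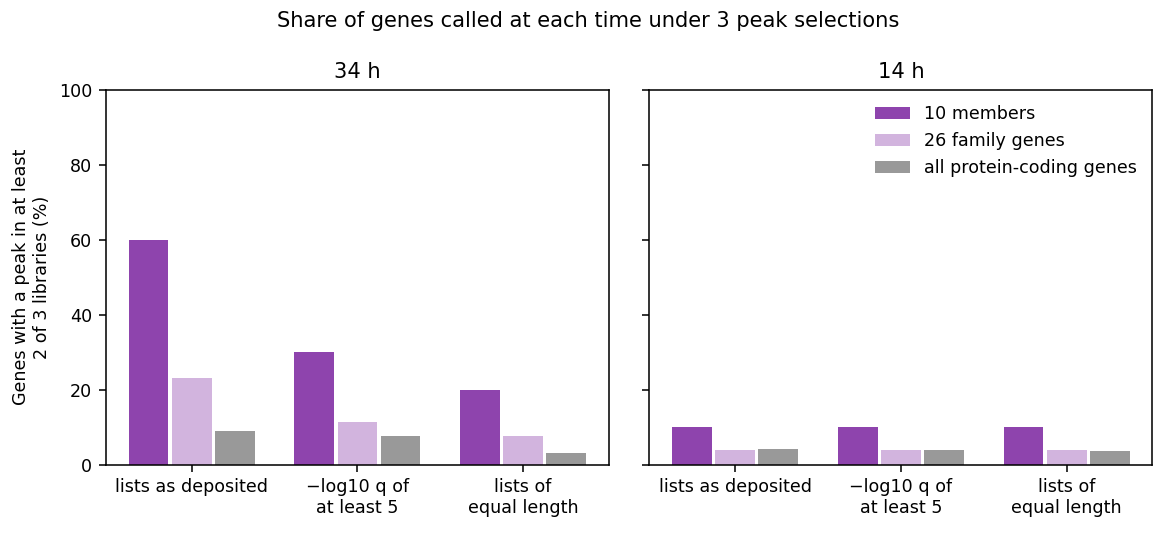
Genes with a peak in at least 2 of 3 libraries (per cent) at 34 h and at 14 h, for the 10 members, the 26 family genes and all protein-coding genes, with the lists as deposited, at a −log10 q of at least 5 and at equal list length. The members' share at 34 h is 60.0% with the lists as deposited, a value that the choice of members fixes in part, while the share of all genes is 9.01%.

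The full family of 26 genes was listed by membership, but it holds the 10 members that presence chose. It had 6 genes called at 34 h (23.1%) and 1 at 14 h (3.85%), beside 9.01% and 4.27% of all protein-coding genes. All the called family genes were members, so the choice of members fixes these shares in part. Of the 9 SP genes 4 were called at 34 h, and of the 17 KLF genes 2. None of the other 16 genes was called at either time. In single libraries, named after their values were seen, Klf2 (fold 6.57), Klf7 (4.91) and Sp8 (6.72) had a peak in replicate 2 of 34 h, the longest list, and Klf3 (7.70) in replicate 1, there also inside the protein-coding gene Gm38457. Klf16 (5.71) had one in replicate 2 of 14 h, and Klf5 in replicate 2 of both times (5.59 at 34 h and 5.35 at 14 h).

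Other factors of GC-rich and CCAAT promoters were examined as a list of 15 genes, of which 3 were called at 34 h (20.0%, beside 9.01% of all protein-coding genes) and 2 at 14 h (13.3%, beside 4.27%). Nfya, which encodes the sequence-specific subunit of the CCAAT-binding factor NF-Y, was called at both, with a highest fold of 6.10, 7.89 and 5.74 in replicates 1, 2 and 3 of 34 h, and of 8.23 and 6.02 in replicates 2 and 3 of 14 h, with none in replicate 1. The 5.74 of replicate 3 was at another summit, and at the site shared with the other libraries that replicate had 4.49. Nfyb, a histone-fold subunit of NF-Y, had 7.80, 9.06 and 5.36 at 34 h and no peak at 14 h. Nfyc, the other histone-fold subunit, was called at 14 h with 7.76 and 4.60 in replicates 1 and 2, and at 34 h had peaks in replicate 2 (highest fold 7.57), none of which overlapped those of 14 h. All Nfyb peaks lay inside the protein-coding gene Hcfc2. The Nfya peaks lay inside, across the edge of, or within 1 kb of the protein-coding gene Oard1. The peaks therefore cannot be assigned to Nfya or Nfyb alone. Zbtb7a, a zinc finger repressor gene, had 8.57 and 7.68 in replicates 1 and 2 of 34 h and none at 14 h.

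Of 15 genes for cofactors of SP and KLF proteins, 3 were called at 34 h (20.0%, beside 9.01% of all protein-coding genes) and 0 at 14 h (beside 4.27%). Sin3a, the corepressor scaffold that Klf10 and Klf11 proteins recruit, had a highest fold of 7.99, 9.26 and 7.12 in replicates 1, 2 and 3 of 34 h, against no peak at 14 h. The 9.26 came from another site of the gene, and at the site shared by the 3 libraries, which lies within 1 kb of the long non-coding RNA gene 2700012I20Rik, replicate 2 had 7.68. The acetyltransferase gene Kat2b had 6.39 and 4.78, and the Mediator subunit gene Med23 4.79 and 8.85, in replicates 1 and 2 of 34 h. Both lists were written with earlier results of these data known.

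The genes whose folds were most like those of a member, among protein-coding genes with a peak in exactly the same libraries, were ranked by the root mean square difference of log2 fold. For Sp1 (3 libraries, 226 other genes) they were Mnat1, at 0.07, and G2e3 and Scfd1, at 0.11 each, which share peaks. For Sp2 (3 libraries) they were Gatad2b, Nlk and Ube2d3, at 0.10 to 0.13, and for Klf9 (3 libraries) Zfp568, Usp22 and Med6, at 0.02 to 0.06. For Sp3 (3 libraries, 109 genes) they were Bicd2, Fchsd2 and Gm52051, at 0.03 to 0.11. Sp4 (4 libraries, 54 genes) was nearest to Mdh1 and Wdpcp, at 0.21 each, which share peaks, and AW549877, at 0.22. The 7 other genes with the pattern of Klf11 were led by Cntln, Atn1 and Plec, at 0.17, 0.25 and 0.37. Likeness over so few libraries is a description.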

How the data were processed

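Chromatin from C2C12 cells was sequenced as 3 APOBEC2 IP libraries and 1 input at each of 34 h and 14 h, grouped by the sample titles. Subread and MACS2 on mm10 are named in the submitters' processing notes; for their versions and thresholds: not given in the sources used here. Each IP library has its own list of peaks, called with the matching input as control, as the peak names in the deposited lists show. The deposited fold is a linear ratio, written by the authors' peak caller, and the deposited significance values are −log10 p-values and −log10 q-values. A deposited integer score was read but not used in a result, and the deposited summit lists matched the peak lists at all 11194 peaks.

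Fragments under a summit were solved from fold = (fragments + 1)/(background + 1) and the Poisson upper tail, which fitted 100% of peaks on chromosomes 1 to 19, X and Y to within 0.001 on the −log10 p scale. This was tested on simulated data, as was the assignment of peaks to genes. Such counts limit precision, and libraries are not corrected for depth. Gene positions and promoter sequences came from RefSeq tables on GRCm38.p6; 9 of the 10 members had a promoter window there, in 12 windows. Where a library had several peaks at a gene, the highest fold was used, and means and SDs cover libraries with a peak. Values were computed with Python 3.11.15, pandas 2.3.3 and scipy 1.17.1.

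The members, lists, motifs and alternatives were chosen with earlier results of these data known. All 10 members are described. Genes of the other lists are named when called in at least 2 libraries of a time, other family genes with a peak in a single library were named after their values were seen, and the 3 most similar genes for members with a peak in at least 3 libraries. No test between times was run, since presence chose the members and folds exist only where a peak was called. The alternatives tried were equal list lengths, a −log10 q of 5 or more, 3 other gene windows, summits in place of peaks, any or all libraries, overlap of the peaks themselves, and leaving out each library.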

Additional observations from a re-analysis of the deposited data

How the results depend on the processing

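Under every alternative tried, Klf11 was called at 14 h. It was the single member called there, except where a peak in any 1 library sufficed, which added Sp3 and Sp4 to give 3 (5 over the family, and 11 of the family at 34 h). Several alternatives could not remove the Klf11 call. A library of 34 h left out, a wider window or a looser rule cannot undo a call at 14 h. The equal length of 768 peaks was the whole list of replicate 1 of 14 h, and replicate 3 held 797. The 6 members called at 34 h became 3 at a −log10 q of at least 5, 2 with lists of equal length, 1 inside the gene with no flank and 3 where peaks of a pair of libraries had to overlap by 50% of each, where 7.60%, 3.16%, 7.40% and 7.53% of all protein-coding genes were called, beside 9.01%. The counts of members called at 34 h and not at 14 h, and of the family at 34 h, were the same 3, 2, 1 and 3 there. The 1 left inside the gene with no flank was Sp2. The members called at 34 h were 5 where peaks of a pair of libraries had to overlap by 1 bp, with 8.76% of all protein-coding genes. They were 4 within 1 kb of a gene boundary alone (7.36%), and 4 where all 3 libraries were required (3.95%). Fewer peaks, a narrower window or a stricter rule can only lower the count at a time; the cause was otherwise not tested. Leaving out each library in turn gave 4 to 6 members at 34 h, and the same range for the family and for the count at 34 h and not at 14 h. At 14 h it gave 1 in every case, for the members and for the family. The low value of 4 came without replicate 1 or replicate 2 of 34 h, where Sp3 and Klf10 dropped out. The shares of all genes were then 4.50% without replicate 1 and 3.98% without replicate 2 at 34 h, and 1.81% and 1.37% at 34 h and not at 14 h, beside 5.51% with all libraries.

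No paired analysis was possible because these results come from no test. Summits on as few as 12 fragments limit the firmness of Klf11, Sp2, Sp3 and Klf10. Klf11 kept its call throughout, but several alternatives could not remove it. Sp2 lost its own at a −log10 q of at least 5, with lists of equal length, within 1 kb of a gene boundary alone and with the 50% overlap. The Sp4 peak of replicate 3 of 34 h stood on 14 fragments. Klf9 lost its call with lists of equal length, with the 50% overlap and inside the gene with no flank. Sp1 and Sp4 lost theirs only inside the gene with no flank.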
